A study of Mus musculus with 4 samples.

Results

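The genes described here build, branch, cap, bundle and pull on actin filaments. They are 52 named genes of the actin cytoskeleton, with vimentin and the MARCKS proteins at its margin, taken by symbol from a table of 24358 genes and 34535 transcripts. All 52 were in the table, with 99 transcripts, and 34 of them had 1 transcript. The cells came from wound beds in the dermis of male C57/Bl6 mice aged 7 weeks, collected on day 5 after wounding. Sorting gave CD301b macrophages, which carry the lectin CD301b, and immune cells without F4/80, the protein commonly used to mark mouse macrophages. Each population had 2 libraries of messenger RNA prepared with a TruSeq kit. No genotype other than the strain, and no treatment other than the wound, is named in the labels.

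Actin monomers add to the growing end of a filament and leave from its older end. Profilin and thymosins hold the monomer pool, cofilin severs old filaments, and capping protein closes growing ends. The Arp2/3 complex starts new filaments as branches on existing ones, and it is switched on by proteins of the WASP and WAVE families. Macrophages use such branched networks to crawl, to engulf particles and to form podosomes, the small adhesive feet with which they hold and probe matrix. Myosin II pulls on unbranched bundles, along which tropomyosins lie.

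The authors deposited 1 FPKM value (sequenced fragments divided by transcript length and by library size) for each transcript and population. FPKM is scaled to transcript length, so levels can be set side by side between genes. The value of a gene is the sum over its transcripts. No value per library was at hand, so no SD accompanies any level, the depth of each library is unknown, and every test is the authors' own. Nothing in the labels says whether the 2 libraries of a population came from separate animals, so those p-values may measure technical spread alone. The authors deposited an unadjusted p-value for each transcript. "Adjusted p" is that p-value after Benjamini-Hochberg adjustment, computed here over all 16921 tested transcripts, and a gene is given the smallest of its transcripts. A gene was called higher or lower at an adjusted p of at most 0.05, when its summed FPKM went the same way and no transcript passed the other way.

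The labels were checked against marker genes. All 8 macrophage markers were higher in CD301b macrophages, with summed levels of 7761 FPKM in CD301b macrophages and 2615 FPKM in F4/80-negative cells. Adgre1, which encodes F4/80 itself, stood at 557 FPKM in CD301b macrophages and still at 150.8 FPKM in F4/80-negative cells. Of 8 dendritic cell markers 7 were lower in CD301b macrophages, with sums of 70.3 FPKM in CD301b macrophages and 288 FPKM in F4/80-negative cells. T cell markers were near 0 in both, with sums of 3.65 FPKM in CD301b macrophages and 4.52 FPKM in F4/80-negative cells. Of 7 mast cell markers 5 were lower and of 6 tested neutrophil markers 3, while 1 of 3 tested platelet markers (Ppbp) and 1 of 5 tested skeletal muscle markers were higher, and none of 5 endothelial markers passed. Fibroblast markers were abundant in both sorts, at 4200 FPKM in CD301b macrophages and 6197 FPKM in F4/80-negative cells. In populations measured in bulk, fewer cells of a type and less RNA per cell cannot be told apart.

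Some actin cytoskeleton genes, such as Tmsb4x, Actg1 and Vim, were among the most abundant messages of both populations, while others lay far lower. Most of the 52 did not pass the test between the populations. Levels of all 52 summed to 23581 FPKM in CD301b macrophages and 23084 FPKM in F4/80-negative cells. These sums were 4.29% of all FPKM in CD301b macrophages and 4.44% in F4/80-negative cells. Tmsb4x alone made up 1.29% of all FPKM in CD301b macrophages and 1.44% in F4/80-negative cells. Of the 50 members that the authors tested, 5 were higher in CD301b macrophages, namely Actb, Marcks, Wasf2, Lcp1 and Capzb. Ezr and Gsn were lower. Wipf1 had a passing transcript that went against its sum, and the other 42 did not pass the threshold. Vil1 and Wasf1, at under 1 FPKM in both populations, were not tested.

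The 5 higher members are 10% of those tested, where 11.0% of all 13039 tested genes were higher in CD301b macrophages. The 2 lower members are 4%, where 6.20% of all tested genes were lower. Among genes at 10 FPKM or more in at least 1 population, 15.8% were higher and 7.00% were lower, and 48 members reached that level, the 5 higher and 2 lower ones among them. Both shares of called members lay near or under the background. Without adjustment, 17 members (34%) had a smallest p under 0.05 with a higher sum in CD301b macrophages, where 20.0% of all tested genes did. In the lower direction 7 members (14%) had one, where the background was 12.8%. The difference between these shares was not tested. The 17 include Wipf1, whose smallest p came from a transcript that was lower in CD301b macrophages. The smallest p also depends on the number of transcripts. The 50 tested members had 87 tested transcripts, where all 13039 tested genes had 16921. Shares without adjustment were not computed for genes at 10 FPKM or more, so 34% and 20.0% are not matched for level. The median log2 ratio of (FPKM + 1), CD301b macrophages over F4/80-negative cells, was 0.08 over the tested members and 0.05 over all tested genes.

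**Figure D1:**
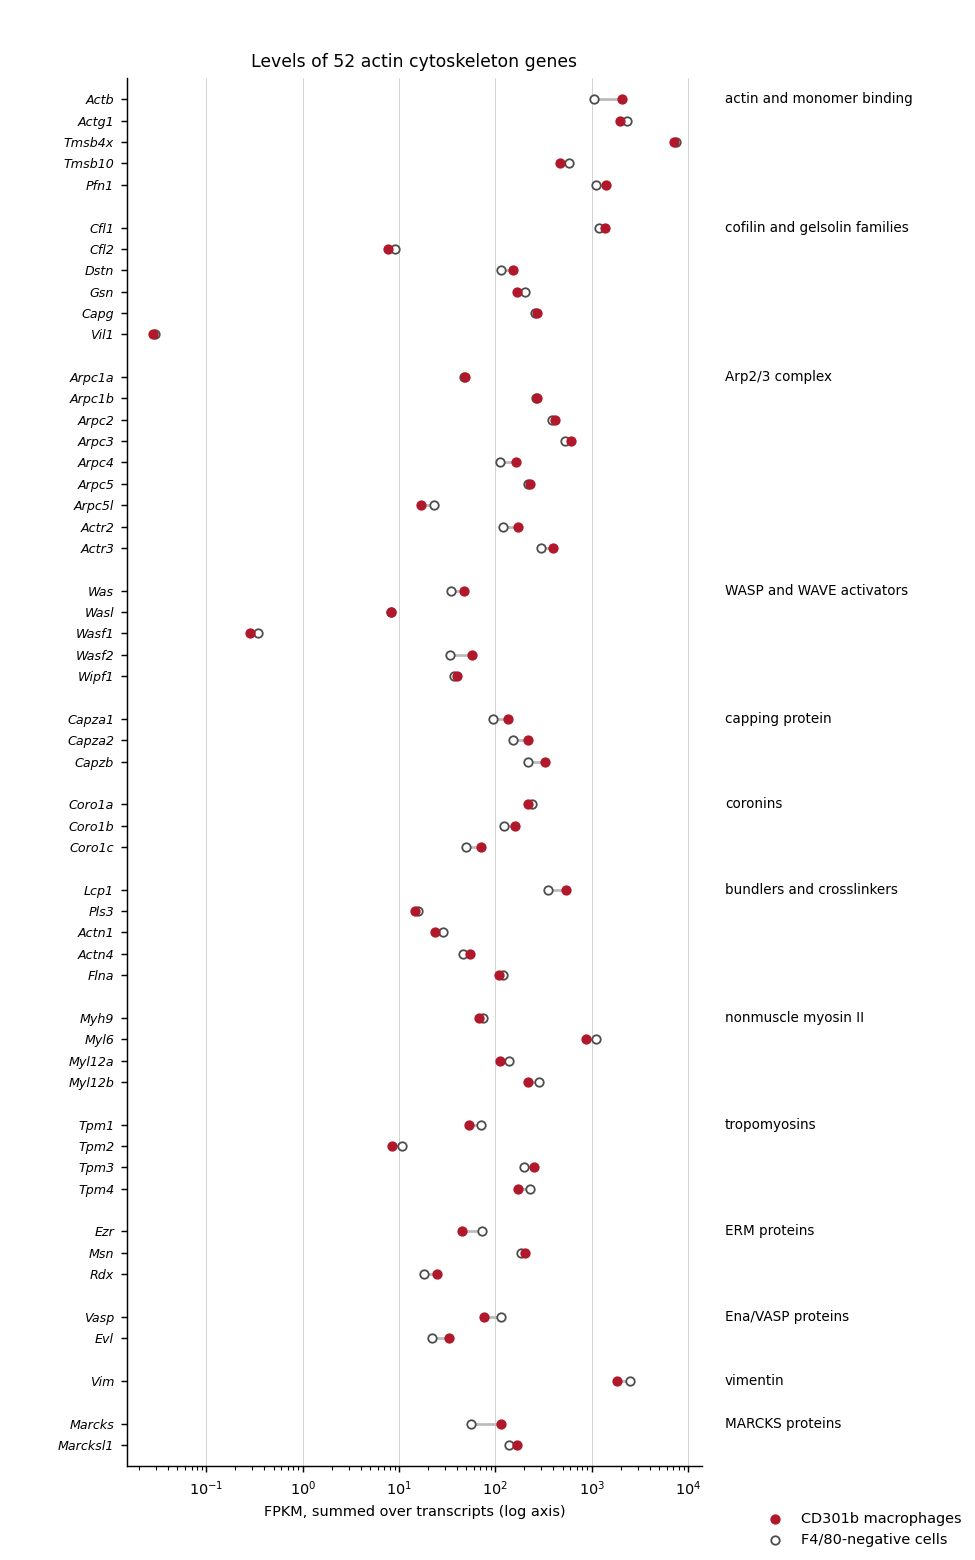
FPKM of the 52 genes on a log axis, grouped by role, with CD301b macrophages as filled points and F4/80-negative cells as open points; each point is 1 deposited value or a sum of such values, with no error. Levels span a wide range, with Tmsb4x at the top (7084 and 7484 FPKM in CD301b macrophages and F4/80-negative cells) and Vil1 at the bottom (0.0278 and 0.0294 FPKM).

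Median FPKM over all genes was itself higher in CD301b macrophages, by 0.11 on the log2 scale, among the 11184 genes at 1 FPKM or more in both populations. Small differences therefore change side when each population is divided by that median. The median log2 ratio of the members then moved to -0.03 and that of all tested genes to -0.04. After that division 23 of the 50 tested members had a higher sum in CD301b macrophages, where 30 (60%) did as deposited. Of all 13039 tested genes, 6003 did after that division and 7216 (55.3%) as deposited. The called genes kept their direction.

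Of the cytoplasmic actin genes, Actb was higher in CD301b macrophages and Actg1 did not pass. Nonmuscle cells make filaments from beta and gamma actin, encoded by Actb and Actg1, whose proteins differ in a few residues near their start. Actb had 2057 FPKM in CD301b macrophages, against 1068 FPKM in F4/80-negative cells. It was 1.93-fold higher, with an adjusted p of 0.000999. Actg1 had 1988 FPKM in CD301b macrophages and 2306 FPKM in F4/80-negative cells, with an adjusted p too high to pass (0.543). Actb thus made up 50.9% of the actin message of the pair in CD301b macrophages and 31.6% in F4/80-negative cells. Actg1 stood at 0.966 times the Actb level in CD301b macrophages and at 2.16 times in F4/80-negative cells. The difference between these shares was not tested, since no value per library was available.

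Reads can be assigned to the wrong gene where messages are alike, so the first 60 coding bases of both actins are shown, 5′ to 3′, from GENCODE transcripts on GRCm38. Capitals mark the bases at which the pair differs.
Actb: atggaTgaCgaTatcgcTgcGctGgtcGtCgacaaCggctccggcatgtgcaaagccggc
Actg1: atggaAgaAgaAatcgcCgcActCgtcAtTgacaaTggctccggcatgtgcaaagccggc
The pair differs at 9 of these bases, and at 128 of all 1125 coding bases (88.6% identical). Actb lies at chr5:142903115-142907976 and Actg1 at chr11:120345687-120348495 of GRCm38. Likeness was also read from words, the runs of 50 bases that a transcript contains. Of the words of Actb, 14.2% also occurred in other genes, with 9.57% in Lrrc58 and 1.603% in Actg1. Actg1 shared 51.1% of its words with Gm12715, so its own level is the less certain of the pair.

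The other monomer-binding genes did not pass. Tmsb4x, the chief monomer-sequestering thymosin, was the fifth most abundant gene of CD301b macrophages and the second of F4/80-negative cells. Its relative Tmsb10 had 472 FPKM in CD301b macrophages and 584 FPKM in F4/80-negative cells. Pfn1, the profilin that loads monomers for polymerization, had 1401 FPKM in CD301b macrophages and 1099 FPKM in F4/80-negative cells. None of the 3 had an unadjusted p under 0.05. Of the Tmsb10 words, 63.5% were shared with other genes, mostly Gm9844.

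Among severing and filament-end proteins, cofilin Cfl1 held most of its family's message in both populations (89.5% in CD301b macrophages, 90.6% in F4/80-negative cells). Cfl1 had 1377 FPKM in CD301b macrophages and 1187 FPKM in F4/80-negative cells. The related severing protein destrin, Dstn, stood at 153.7 FPKM in CD301b macrophages and 114.0 FPKM in F4/80-negative cells. The muscle-enriched Cfl2 had 7.59 FPKM in CD301b macrophages and 8.99 FPKM in F4/80-negative cells. Capg, a macrophage protein of the gelsolin family that caps without severing, had 269 FPKM in CD301b macrophages and 256 FPKM in F4/80-negative cells. Vil1, the villin of intestinal brush borders, stood at 0.0278 FPKM in CD301b macrophages and 0.0294 FPKM in F4/80-negative cells.

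Gelsolin, the calcium-activated severing protein encoded by Gsn, was called lower, but the call rested on its rarest transcript. Summed Gsn stood at 169 FPKM in CD301b macrophages and 203.5 FPKM in F4/80-negative cells, 1.20-fold lower. The transcript that passed, NM_146120, had 1.27 FPKM in CD301b macrophages and 5.12 FPKM in F4/80-negative cells, with an adjusted p of 0.0279. It encodes a form of 780 residues, the longer gelsolin, which is secreted. The other 3 transcripts all encode the form of 731 residues that stays in the cell. The main one of these, NM_001206369, had 116.9 FPKM in CD301b macrophages and 115.6 FPKM in F4/80-negative cells. The 2 minor ones leaned in opposite directions and did not pass. NM_001206367 had 29.6 FPKM in CD301b macrophages and 16.2 FPKM in F4/80-negative cells. NM_001206368 had 21.4 FPKM in CD301b macrophages and 66.6 FPKM in F4/80-negative cells. By its main transcript alone Gsn was not called, and its log2 ratio turned to 0.02. All 6 fibroblast markers had lower sums in CD301b macrophages, with Lum alone passing, and their part in the Gsn values was not tested.

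The Arp2/3 complex was expressed as a whole at high levels in both populations, and none of its 9 genes passed the threshold on the adjusted Cuffdiff p. Unadjusted, 3 (33.3%) had a p under 0.05 with a higher sum in CD301b macrophages, where 20.0% of all tested genes did. With a lower sum 1 (11.1%) had such a p, where 12.8% of all tested genes did. The summed level of the complex was 2312 FPKM in CD301b macrophages and 2001 FPKM in F4/80-negative cells. As deposited, 8 of 9 subunit genes had a higher sum in CD301b macrophages, at a median log2 ratio of 0.10. After division by the median gene, however, 4 of 9 did, at a median of -0.02. Of all 13039 tested genes, 7216 (55.3%) did as deposited and 6003 after that division. Arpc3, one of its small subunits, was the most abundant, with 604 FPKM in CD301b macrophages and 527 FPKM in F4/80-negative cells. Arpc2, which with Arpc4 forms the core that holds the mother filament, had 417 FPKM in CD301b macrophages and 390 FPKM in F4/80-negative cells.

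As deposited, Arpc4, Actr2 and Actr3 had the largest ratios of CD301b macrophages over F4/80-negative cells among the 9. Actr2, which encodes Arp2, had 172 FPKM in CD301b macrophages and 119 FPKM in F4/80-negative cells, a ratio of 1.44 that did not pass (adjusted p 0.0638). Actr3, which encodes Arp3, had 394 FPKM in CD301b macrophages and 300.1 FPKM in F4/80-negative cells, and 48.5% of its words also occurred in Gm8822. Arpc4 had 162.6 FPKM in CD301b macrophages and 112.0 FPKM in F4/80-negative cells (adjusted p 0.0696). That p belongs to its main transcript, matched to a protein of 78 residues, at 113.2 FPKM in CD301b macrophages and 72.8 FPKM in F4/80-negative cells. Of the words of that transcript, 18.4% were shared with the neighbouring Ttll3. The transcript for 168 residues had 49.3 FPKM in CD301b macrophages and 39.3 FPKM in F4/80-negative cells (adjusted p 0.551).

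Where the complex has alternative subunits, the same gene was the main one in both populations. Arpc1b held 84.8% of the Arpc1 message in CD301b macrophages and 85.1% in F4/80-negative cells. Arpc1b had 269.9 FPKM in CD301b macrophages and 266.1 FPKM in F4/80-negative cells, and its alternative Arpc1a had 48.4 FPKM in CD301b macrophages and 46.7 FPKM in F4/80-negative cells. Arpc5 held 93.1% of its pair in CD301b macrophages and 90.3% in F4/80-negative cells. Its level was 227.0 FPKM in CD301b macrophages and 216.5 FPKM in F4/80-negative cells. Arpc5l was the single subunit gene with a lower sum in CD301b macrophages as deposited, at 16.7 FPKM against 23.2 FPKM in F4/80-negative cells (adjusted p 0.136). Exons of Pdap1 on the other strand cover 18.2% of the Arpc1b exons, and reads of the 2 genes may not be told apart.

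Of the activators of Arp2/3, the WAVE gene Wasf2 was higher, and Was and Wasl did not pass. Wasf2, which encodes WAVE2, the activator that works downstream of Rac at the leading edge, had 56.7 FPKM in CD301b macrophages and 33.4 FPKM in F4/80-negative cells. It was 1.70-fold higher, with an adjusted p of 0.00392, from a single transcript that shares no 50-base word with another gene. Wasf2 lies at chr4:133130531-133199748. The brain-enriched WAVE1 gene Wasf1 had 0.283 FPKM in CD301b macrophages and 0.346 FPKM in F4/80-negative cells, so that Wasf2 made up 99.5% of the pair in CD301b macrophages and 99.0% in F4/80-negative cells.

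Was, the blood-cell WASP that builds podosomes, had 47.6 FPKM in CD301b macrophages and 34.6 FPKM in F4/80-negative cells (adjusted p 0.119). Its widely expressed relative Wasl had 8.27 FPKM in CD301b macrophages and 8.16 FPKM in F4/80-negative cells. Wipf1, the partner that stabilizes WASP, had 39.8 FPKM in CD301b macrophages and 37.5 FPKM in F4/80-negative cells, but its transcripts diverged. NM_001289722 was lower in CD301b macrophages, at 4.86 FPKM against 8.70 FPKM in F4/80-negative cells, with an adjusted p of 0.0494. NM_001289723 had 34.9 FPKM in CD301b macrophages and 28.5 FPKM in F4/80-negative cells without passing, and both encode the same length of 493 residues.

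All 3 capping protein genes had higher sums in CD301b macrophages, also after division by the median gene, and 1 passed. Of all 13039 tested genes, 55.3% had higher sums as deposited, and 11.0% were called higher. Capping protein is a dimer of an alpha and a beta subunit that stops growth at the fast end, which keeps branched networks short and dense. Capzb, the beta subunit, had 328.6 FPKM in CD301b macrophages and 217.8 FPKM in F4/80-negative cells, 1.51-fold higher. Its main transcript NM_001271406 passed, with 317.9 FPKM in CD301b macrophages and 210.1 FPKM in F4/80-negative cells (adjusted p 0.0306). The call was lost when each gene was given 1 p, corrected for its number of transcripts. The alpha subunit Capza1 had 135.3 FPKM in CD301b macrophages and 94.2 FPKM in F4/80-negative cells, with an adjusted p of 0.0649. Capza2 had 217.0 FPKM in CD301b macrophages and 152.5 FPKM in F4/80-negative cells, with an adjusted p of 0.0791. Capza2 held 61.6% of the alpha message in CD301b macrophages and 61.8% in F4/80-negative cells. Capza1 shared 73.8% of its words with other genes, almost all of them with Gm3608.

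The coronins, which bind Arp2/3 and help take branches apart, leaned in different directions, and none of the 3 passed. Coro1a, the leukocyte coronin, had 219.8 FPKM in CD301b macrophages and 241.8 FPKM in F4/80-negative cells (adjusted p 0.696). Coro1b had 159.5 FPKM in CD301b macrophages and 123.4 FPKM in F4/80-negative cells (adjusted p 0.224). Coro1c had 71.6 FPKM in CD301b macrophages and 49.2 FPKM in F4/80-negative cells and was the member just outside the threshold, at an adjusted p of 0.0509. Coro1a made up 48.7% of coronin message in CD301b macrophages and 58.3% in F4/80-negative cells, a difference that was not tested. Coro1b shared 20.8% of its words with its neighbour Ptprcap.

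Among bundling and crosslinking proteins, the leukocyte plastin Lcp1 was higher. Lcp1, which packs filaments into tight bundles, had 542 FPKM in CD301b macrophages and 349.1 FPKM in F4/80-negative cells, 1.55-fold higher. The transcript NM_008879 carried it, with 520.9 FPKM in CD301b macrophages and 328.2 FPKM in F4/80-negative cells and an adjusted p of 0.0239. The plastin of nonblood tissues, Pls3, stood at 14.6 FPKM in CD301b macrophages and 15.8 FPKM in F4/80-negative cells. Actn4 and Actn1 encode alpha-actinins, which space filaments apart in looser bundles. Actn4 had 54.5 FPKM in CD301b macrophages and 45.7 FPKM in F4/80-negative cells, while Actn1 had 23.4 FPKM in CD301b macrophages and 28.4 FPKM in F4/80-negative cells. Filamin A, encoded by Flna and the main crosslinker of filaments into a gel, had 108.6 FPKM in CD301b macrophages and 119.0 FPKM in F4/80-negative cells. Pls3, Actn4, Actn1 and Flna did not pass, nor did any of them have an unadjusted p under 0.05.

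The nonmuscle myosin II genes leaned the other way, without passing. All 4 had lower sums in CD301b macrophages, also after division by the median gene. Of all 13039 tested genes, 5823 had lower sums as deposited. Together the 4 had 1281 FPKM in CD301b macrophages and 1602 FPKM in F4/80-negative cells. The heavy chain Myh9 had 67.5 FPKM in CD301b macrophages and 75.0 FPKM in F4/80-negative cells. Its essential light chain Myl6 had 882 FPKM in CD301b macrophages and 1101 FPKM in F4/80-negative cells (adjusted p 0.311). The regulatory light chain, through which phosphorylation switches myosin on, comes from Myl12a and Myl12b. Myl12a had 111.4 FPKM in CD301b macrophages and 139.7 FPKM in F4/80-negative cells. Myl12b had 219.5 FPKM in CD301b macrophages and 285.5 FPKM in F4/80-negative cells (adjusted p 0.202). None of the 4 had an unadjusted p under 0.05.

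Myl12a and Myl12b lie side by side, at chr17:70993793-71002533 and chr17:70973963-70990516, and their messages are near copies. The first 60 coding bases of each are shown, with capitals where they differ.
Myl12b: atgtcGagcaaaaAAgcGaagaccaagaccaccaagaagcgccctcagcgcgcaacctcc
Myl12a: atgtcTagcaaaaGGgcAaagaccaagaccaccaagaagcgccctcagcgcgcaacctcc
These starts differ at 4 bases, and the coding sequences at 18 of 516 (96.5% identical). Of the Myl12a words 29.2% occurred in Myl12b, so the split between the 2 genes is uncertain. Myl12b took 66.3% of their sum in CD301b macrophages and 67.1% in F4/80-negative cells. Myl6 shared 53.2% of its words with other genes, mostly Gm5526.

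Tropomyosins coat filaments and set which other proteins can bind them. Tpm3 and Tpm4 made most of the message, and their order of level was reversed between the populations. Tpm3 had 252.1 FPKM in CD301b macrophages and 198.5 FPKM in F4/80-negative cells. Tpm4 had 172.5 FPKM in CD301b macrophages and 230.5 FPKM in F4/80-negative cells (adjusted p 0.163). Tpm3 was thus 51.8% of tropomyosin message in CD301b macrophages and 38.9% in F4/80-negative cells, which was not tested. Of the Tpm3 words, 66.8% were shared with Tpm3-rs7. Tpm1 had 53.3 FPKM in CD301b macrophages and 70.7 FPKM in F4/80-negative cells over 10 transcripts, and Tpm2 had 8.43 FPKM in CD301b macrophages and 10.8 FPKM in F4/80-negative cells.

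Each tropomyosin gene except Tpm4 had transcripts for long proteins, of 281 to 285 residues, and short proteins of 245 to 248 residues come from Tpm1, Tpm3 and Tpm4. The short forms summed to 446.0 FPKM in CD301b macrophages and 450.3 FPKM in F4/80-negative cells. The long forms, which are typical of muscle and fibroblast stress fibres, summed to 40.3 FPKM in CD301b macrophages and 60.2 FPKM in F4/80-negative cells. Within Tpm1 the short forms had 23.5 FPKM in CD301b macrophages and 23.6 FPKM in F4/80-negative cells, while the long forms had 29.8 FPKM in CD301b macrophages and 47.1 FPKM in F4/80-negative cells. No tropomyosin transcript passed the threshold on the adjusted Cuffdiff p. Unadjusted, 1 of the 4 genes had a p under 0.05 with a higher sum in CD301b macrophages, where 20.0% of all tested genes did. With a lower sum 2 of the 4 had such a p, where 12.8% of all tested genes did. Smooth muscle and pericyte markers summed to 71.7 FPKM in CD301b macrophages and 87.8 FPKM in F4/80-negative cells, with none of 7 passing, and the sums of fibroblast markers were given above. The part of either cell type in the tropomyosin values was not tested.

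**Figure D2:**
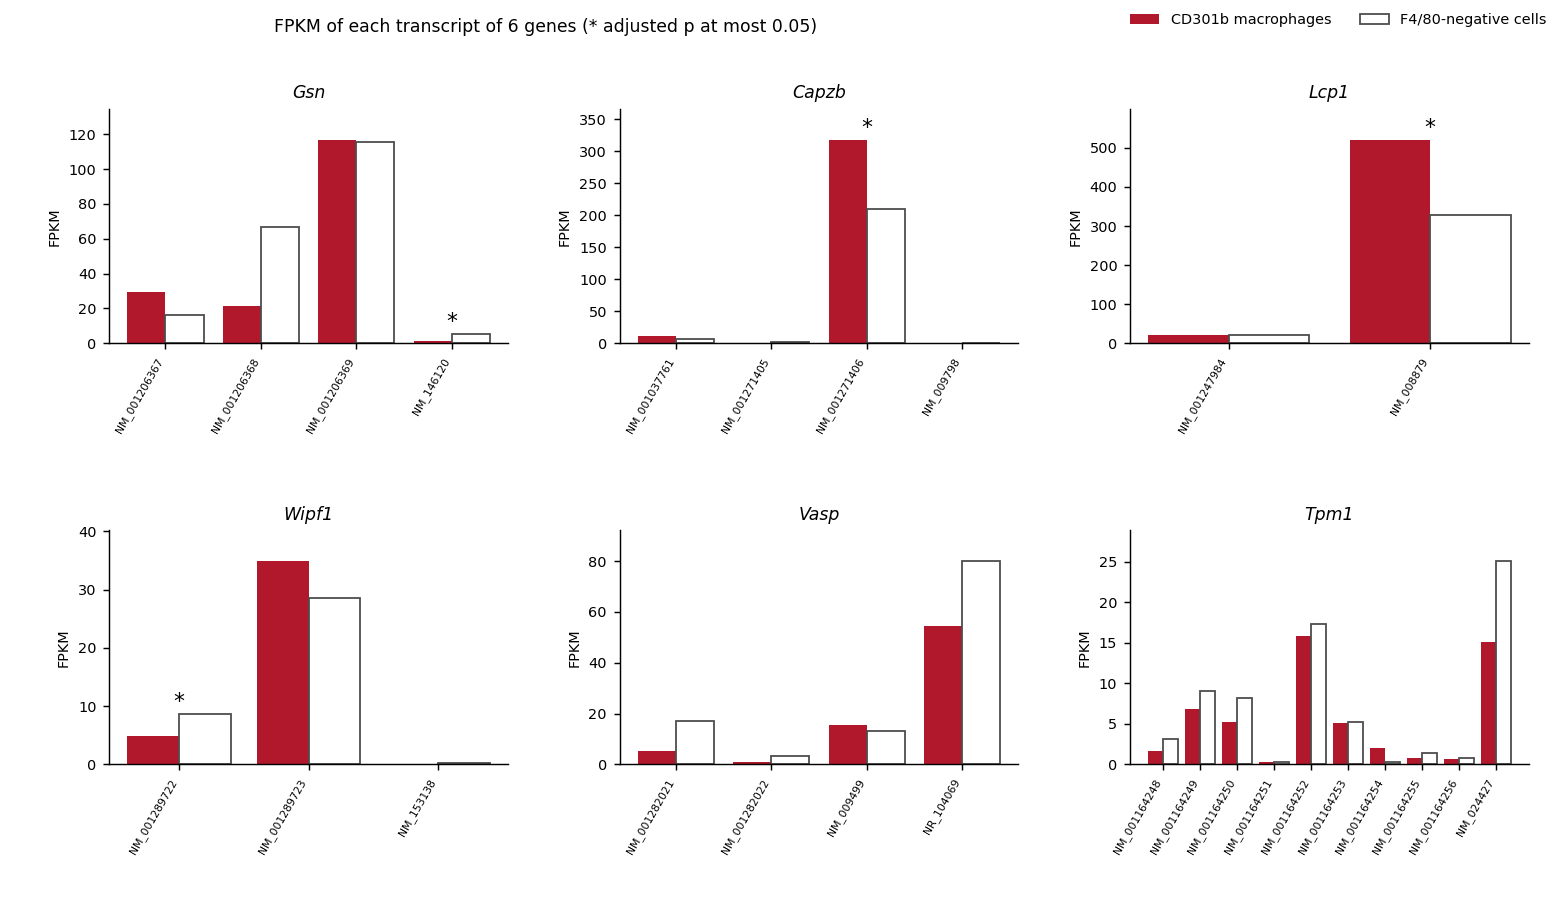
FPKM of each deposited transcript of Gsn, Capzb, Lcp1, Wipf1, Vasp and Tpm1, with filled bars for CD301b macrophages, open bars for F4/80-negative cells, no error, and a star where the adjusted p was at most 0.05. In Capzb and Lcp1 the star stands on the main transcript; in Gsn and Wipf1 it stands on a minor one, at 1.27 and 4.86 FPKM in CD301b macrophages and 5.12 and 8.70 FPKM in F4/80-negative cells.

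The ERM proteins tie actin to the plasma membrane, and 1 of the 3 genes was called lower, where 6.20% of all tested genes were. Ezr, which encodes ezrin, had 44.8 FPKM in CD301b macrophages and 72.7 FPKM in F4/80-negative cells. It was 1.62-fold lower in CD301b macrophages, with an adjusted p of 0.00674, and lies at chr17:6738131-6782780. Moesin, encoded by Msn and the main ERM protein of leukocytes, had 201.2 FPKM in CD301b macrophages and 183.0 FPKM in F4/80-negative cells. Radixin, encoded by Rdx, had 24.5 FPKM in CD301b macrophages and 18.3 FPKM in F4/80-negative cells. Ezrin was 16.6% of ERM message in CD301b macrophages and 26.5% in F4/80-negative cells. Dendritic cell markers, of which 7 of 8 were lower, had the direction of Ezr. Keratinocyte markers summed to 151.9 FPKM in CD301b macrophages and 199.5 FPKM in F4/80-negative cells, with 1 of 5 lower. The part of either in the Ezr value was not tested.

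Ena/VASP proteins keep growing ends free of capping protein, and the pair here leaned in opposite directions without passing. Vasp had 76.0 FPKM in CD301b macrophages and 113.9 FPKM in F4/80-negative cells, with an adjusted p of 0.0762. Evl, its relative in blood cells, had 32.6 FPKM in CD301b macrophages and 21.9 FPKM in F4/80-negative cells. Vasp was 69.9% of the pair in CD301b macrophages and 83.9% in F4/80-negative cells, which was not tested. Most Vasp message was listed under NR_104069, a transcript numbered as noncoding, at 54.5 FPKM in CD301b macrophages and 80.1 FPKM in F4/80-negative cells.

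MARCKS proteins bind actin and membrane phospholipid and let go when protein kinase C phosphorylates them. Marcks had 113.9 FPKM in CD301b macrophages and 55.2 FPKM in F4/80-negative cells, 2.06-fold higher, which was the largest ratio of the 50 tested members. Its adjusted p was 0.000999, the smallest that adjustment of the deposited p-values gave. Marcks lies at chr10:37133243-37138926, in 1 transcript. Its relative Marcksl1 had 166.9 FPKM in CD301b macrophages and 139.1 FPKM in F4/80-negative cells (adjusted p 0.421). Marcks was 40.6% of the pair in CD301b macrophages and 28.4% in F4/80-negative cells. Vimentin, the intermediate filament of leukocytes and mesenchymal cells, had 1836 FPKM in CD301b macrophages and 2505 FPKM in F4/80-negative cells (adjusted p 0.164). All 6 fibroblast markers had lower sums in CD301b macrophages, 1 of them passing, and their part in the Vim value was not tested.

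**Figure D3:**
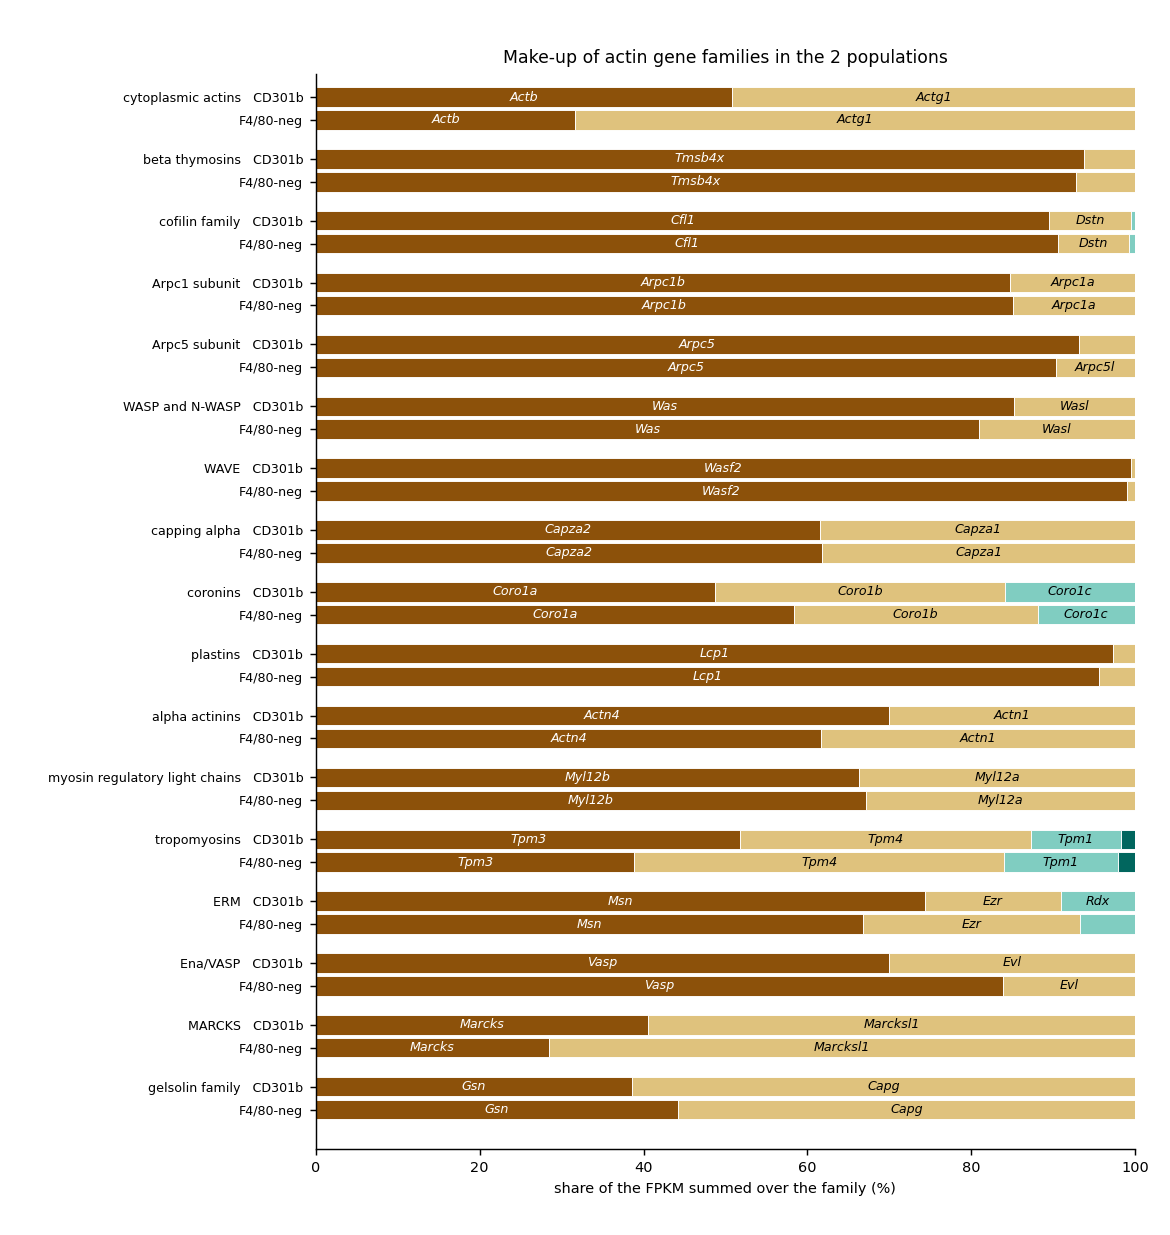
Share of each gene in the summed FPKM of its family, in percent, with CD301b macrophages above F4/80-negative cells; no error or test belongs to a share. The cytoplasmic actins show the widest step (Actb 50.9% and 31.6% in CD301b macrophages and F4/80-negative cells), while Arpc1b stands at 84.8% and 85.1%, and Capza2 at 61.6% and 61.8%, of their pairs in CD301b macrophages and F4/80-negative cells.

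Regulators and partners of these genes were read from a further list of 69 genes, of which 66 were in the table and 65 were tested. Of these, 10 were higher in CD301b macrophages (15.4%, against 11.0% of all tested genes) and 2 were lower (3.08%, against 6.20%). The other 53 did not pass, and the median log2 ratio was 0.16, or 0.05 after division by the median gene. Among all tested genes at 10 FPKM or more in at least 1 population, 15.8% were higher and 7.00% were lower. Some of the regulators did not reach that level. Of the 7 partners of WAVE in its complex, 2 (28.6%) were higher, where 11.0% of all tested genes were. Nckap1l, the blood-cell scaffold of the WAVE complex, had 177 FPKM in CD301b macrophages and 103 FPKM in F4/80-negative cells (adjusted p 0.00258). Cyfip1, the WAVE subunit that receives Rac, had 51.3 FPKM in CD301b macrophages and 28.6 FPKM in F4/80-negative cells (adjusted p 0.000999). The other 5 WAVE partners did not pass, among them Abi1 at 69.0 FPKM in CD301b macrophages and 53.6 FPKM in F4/80-negative cells. The median of the 7 was 0.10, and -0.01 after division by the median gene.

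Dock2 and Elmo1, which together load Rac with GTP in leukocytes, were both higher. Dock2 had 53.4 FPKM in CD301b macrophages and 32.5 FPKM in F4/80-negative cells (adjusted p 0.00572). Elmo1 had 21.3 FPKM in CD301b macrophages and 14.3 FPKM in F4/80-negative cells (adjusted p 0.0337). The small GTPases Cdc42 and Rhoh were higher as well. Cdc42, which opens WASP, had 520.5 FPKM in CD301b macrophages and 324.0 FPKM in F4/80-negative cells (adjusted p 0.00674). Rhoh, a blood-cell GTPase, had 6.86 FPKM in CD301b macrophages and 2.88 FPKM in F4/80-negative cells (adjusted p 0.000999). Rac1 did not pass, at 231.8 FPKM in CD301b macrophages and 170.2 FPKM in F4/80-negative cells.

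Of 10 tested genes of actin turnover and branching outside the member set, 2 (20%) were higher, Cap1 and Twf1. Of all tested genes 11.0% were higher, and the difference between these shares was not tested. Cap1, which works with cofilin to recycle monomers, had 345.5 FPKM in CD301b macrophages and 173.9 FPKM in F4/80-negative cells, 1.99-fold higher. Twf1, the twinfilin that binds monomers and capping protein, had 52 FPKM in CD301b macrophages and 24.2 FPKM in F4/80-negative cells, 2.15-fold higher. Outside that group, Ssh2 and 1 of 6 unconventional myosins (16.7%, against the same 11.0%) were higher. Ssh2, a phosphatase that switches cofilin on, had 19.5 FPKM in CD301b macrophages and 10.03 FPKM in F4/80-negative cells. The carrier myosin Myo5a had 30.8 FPKM in CD301b macrophages and 15.3 FPKM in F4/80-negative cells. Each of these 4 had an adjusted p of 0.000999.

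The lower genes were Fscn1, 1 of 9 podosome and adhesion genes (11.1%), and Myo1g, 1 of 6 unconventional myosins (16.7%). Of all tested genes 6.20% were lower, and the difference from these shares was not tested. Fscn1 encodes fascin, which bundles filaments in the dendrites of mature dendritic cells, and had 19.4 FPKM in CD301b macrophages and 32.7 FPKM in F4/80-negative cells (adjusted p 0.00974). Myo1g, a membrane myosin of blood cells, had 34.7 FPKM in CD301b macrophages and 53.7 FPKM in F4/80-negative cells (adjusted p 0.0155). Dendritic cell markers were lower beside them, and their part was not tested. None of the 6 formin genes tested passed. Unadjusted, 1 (16.7%) had a p under 0.05 with a lower sum in CD301b macrophages, where 12.8% of all tested genes did. The most abundant formin gene was Fmnl1, at 76.1 FPKM in CD301b macrophages and 87.5 FPKM in F4/80-negative cells. Neither did the most abundant genes of 4 other groups pass. The kinase Pak2 had 47.8 FPKM in CD301b macrophages and 33.6 FPKM in F4/80-negative cells. The exchange factor Vav1 had 54.3 FPKM in CD301b macrophages and 46.5 FPKM in F4/80-negative cells. The adhesion protein Zyx had 103.0 FPKM in CD301b macrophages and 106.6 FPKM in F4/80-negative cells, and the myosin Myo1f had 86.5 FPKM in CD301b macrophages and 70.1 FPKM in F4/80-negative cells.

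**Figure D4:**
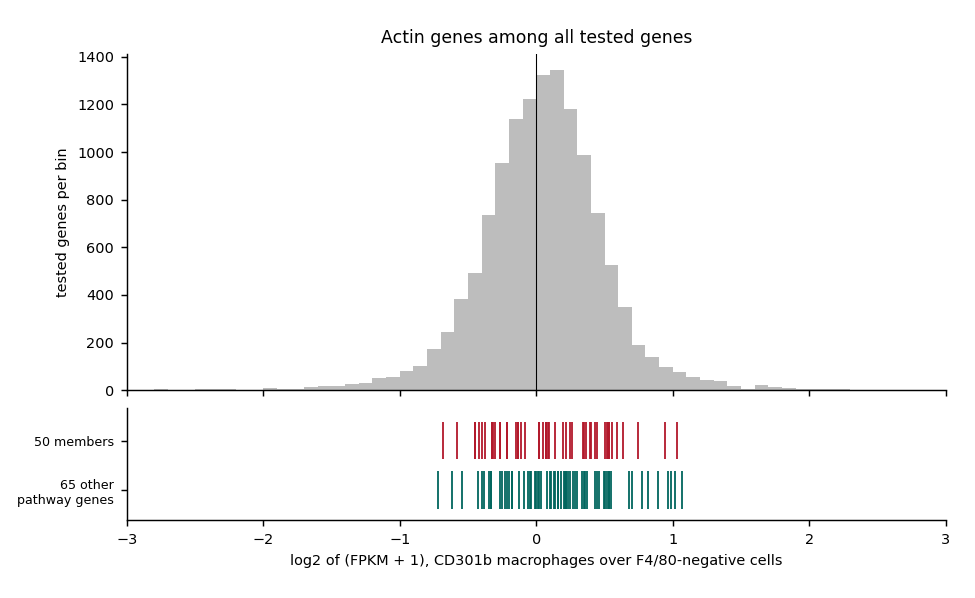
Histogram of the log2 ratio of (FPKM + 1), CD301b macrophages over F4/80-negative cells, for all 13039 tested genes (70 outside the drawn range), above ticks for the 50 tested members and the 65 tested regulators and partners. The members run between -0.69 and 1.03 and the regulators between -0.72 and 1.07, within the spread of all genes.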

How the data were processed

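Messenger RNA was sequenced from 2 libraries of CD301b macrophages and 2 of F4/80-negative cells. Per the submitters' processing notes, TopHat2 2.0.2, Cuffdiff 2.0.2 and build mm9 were used. The sources used here do not give the counting settings or the strand. The FPKM values and unadjusted p-values are the authors', deposited in 1 table of transcripts. The deposited log2 fold column held spreadsheet errors and was not used. Locus coordinates overlapped the GRCm38 gene for 99.2% of the accessions found in a RefSeq table, so positions are given for GRCm38. That build is not the mm9 named in the processing notes, and overlap with mm9 was not computed.

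FPKM were summed by symbol, and p-values adjusted (Benjamini-Hochberg) over 16921 tested transcripts, which gave the same 2408 calls as the authors' significance column. The calling code was run on simulated data whose changes and p-values were set in advance, which checks the code and not the calls. A pseudocount of 1 was used for log2 ratios. Shared sequence was measured as the percent of a transcript's 50-base words found in transcripts of other genes (GENCODE). Coding starts were taken from the same transcripts, and protein lengths from the GENCODE transcripts matched to the deposited accessions. Python 3.11.15, pandas 2.3.3 and numpy 2.4.6 were used.

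The members and lists were chosen with earlier results of these data known. All 52 members were named. From the regulator list, called genes at 5 FPKM or more in 1 population were named, up to the 12 with the largest log2 ratio, plus the most abundant gene of each group. Counts for some regulator groups and 1 reference gene are not reported here. Rac1 and Abi1 were named after their values were seen.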

Additional observations from a re-analysis of the deposited data

How the results depend on the processing

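The call (higher, lower or neither) stayed as given for 47 of 50 tested members at a threshold of 0.01. It also stayed for 47 with 1 p per gene adjusted over genes. It stayed for 49 each with the most abundant transcript alone, with genes at 1 FPKM or more, and with coding (NM_) transcripts alone. Wipf1, whose passing transcript went against its sum, counted as neither throughout. That transcript (adjusted p 0.0494) did not pass at 0.01 or with 1 p per gene, and it is not the most abundant of Wipf1. At 0.01 the higher members numbered 3 (Capzb and Lcp1 lost), the lower members 1 (Gsn lost) and the lower regulators 1 (Myo1g lost). The lower members also numbered 1 with the most abundant transcript alone, where Gsn turned to 0.015 on the log2 scale, and 1 with 1 p per gene, each time without Gsn. With the most abundant transcript alone Wasl, which passed in neither case, also changed sign, at -0.0044 against 0.018 for its summed FPKM. Capzb was lost, and Coro1c gained, with 1 p per gene. Coro1c also passed among genes at 1 FPKM or more and among coding transcripts, which made 6 higher members. Higher regulators numbered 9 to 11. Division by the median gene turned the median of the members to -0.034, that of the Arp2/3 genes to -0.016, and the ratio of the summed FPKM to 0.945 (1.02 as deposited). Pseudocounts of 0.1 and 5 turned neither median. Leaving out the 8 members that share over 20% of their words with another gene was an alternative chosen after seeing the data. None of these 8 was called, so the counts of 5 higher and 2 lower could not change. No paired analysis was possible because the table holds no values per library, and for the same reason no library could be left out. Depth and replicate spread are unknown, which limits what can be said of low transcripts.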

Other observations

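Actb is widely used as a reference gene for normalizing quantitative PCR, so a set of common reference genes, chosen after values of these data were seen, was read beside it. Of the genes reported here, 3 passed the threshold, all of them higher in CD301b macrophages. They were Actb, Hprt at 121.5 FPKM in CD301b macrophages and 69.4 FPKM in F4/80-negative cells (1.75-fold, adjusted p 0.00258), and Gusb at 153.1 FPKM in CD301b macrophages and 98.8 FPKM in F4/80-negative cells (1.55-fold, adjusted p 0.0166). Gapdh had 1472 FPKM in CD301b macrophages and 1429 FPKM in F4/80-negative cells, and Ppia had 1516 FPKM in CD301b macrophages and 1452 FPKM in F4/80-negative cells. Of all 13039 tested genes, 385 (2.95%) had a larger log2 ratio of (FPKM + 1), CD301b macrophages over F4/80-negative cells, than Actb.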
